A study of Rattus norvegicus with 4 samples.

Results

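Genes of the cell cycle machinery were examined in the liver of adult male Wistar rats. The set was taken by gene symbol: cyclins A to H, cyclin-dependent kinases (Cdk) and their inhibitors (Cdkn), cell division cycle (Cdc) genes, minichromosome maintenance (Mcm) genes, E2F factors, Aurora and Polo-like kinases, replication factor C subunits, Pcna, Top2a and Mki67. It held 87 of the 21550 genes of the array. The spelling rule also took 22 genes that carry such a name for another reason, among them the small GTPase Cdc42 with its effectors and the Hsp90 cochaperone Cdc37, so the label covers more than the cell cycle. A textbook role in the cycle or in replication was held by 59 of the 87.

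Liver RNA was measured on Illumina BeadArrays in 4 groups with 1 deposited sample each. The groups were prenatally undernourished (FR30) offspring on a high-fat diet, FR30 offspring on the standard diet, control offspring on a high-fat diet and control offspring on the standard diet. All rats were male, 4 months old and of the Wistar strain. The labels do not say how many animals each sample holds or what the high-fat diet was made of. With 1 sample per group, differences below lack replication and carry neither a test nor a p-value.

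Cells enter the cycle when D-type cyclins activate CDK4 and CDK6, which release E2F factors to switch on the genes of DNA synthesis. The MCM complex then unwinds DNA at origins, the clamp PCNA holds the polymerases, and A- and B-type cyclins with CDK1 carry the cell into mitosis. Hepatocytes of an adult liver rest outside the cycle and return to it after tissue loss. Cyclin D1 is the cyclin best known for that return.

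The start regions of 5 members are shown. Among members with a promoter entry, Mcm10 has the largest difference below of those without a match to the letters searched. The others have the largest differences among members with a match. All are RefSeq promoters of the GRCr8 assembly, from 250 bases before to 50 after the gene start, and 68 of the 87 members matched that table. Ccnd1 and Mcm4 did not match it, so their promoters were not searched. Letters searched were the E2F forms TTTCCCGC and TTTGGCGC and the cell cycle homology region (CHR) TTTGAA, on both strands. Matches are in capitals. Mcm6 has an E2F match 139 bases before its start. Ccnb2 has CHR matches 214 and 43 bases before it, Cdc20 has 1 at 51 bases and Ccnf has them at 198 and 82 bases. In Mcm10 none of these exact letters was found, and other forms of the motifs were not searched.
Mcm6, chr13:42404303-42404602, minus strand: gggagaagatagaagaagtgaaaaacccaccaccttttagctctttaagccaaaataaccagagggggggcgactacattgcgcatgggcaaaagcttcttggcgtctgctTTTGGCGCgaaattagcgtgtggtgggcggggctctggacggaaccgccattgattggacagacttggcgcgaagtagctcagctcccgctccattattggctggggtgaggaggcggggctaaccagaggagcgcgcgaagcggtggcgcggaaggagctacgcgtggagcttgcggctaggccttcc
Mcm10, chr17:78175137-78175436, plus strand: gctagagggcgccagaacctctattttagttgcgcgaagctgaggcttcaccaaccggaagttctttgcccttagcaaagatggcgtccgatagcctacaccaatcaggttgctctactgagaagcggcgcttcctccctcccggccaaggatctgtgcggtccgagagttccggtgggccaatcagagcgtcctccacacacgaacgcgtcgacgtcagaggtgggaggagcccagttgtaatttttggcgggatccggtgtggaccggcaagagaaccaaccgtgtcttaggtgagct
Ccnb2, chr8:79981609-79981908, minus strand: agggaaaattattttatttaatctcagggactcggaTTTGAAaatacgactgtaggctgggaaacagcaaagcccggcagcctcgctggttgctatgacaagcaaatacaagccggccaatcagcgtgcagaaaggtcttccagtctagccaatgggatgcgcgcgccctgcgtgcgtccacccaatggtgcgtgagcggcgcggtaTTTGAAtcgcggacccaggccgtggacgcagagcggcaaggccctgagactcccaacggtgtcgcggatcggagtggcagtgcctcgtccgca
Cdc20, chr5:137255750-137256049, minus strand: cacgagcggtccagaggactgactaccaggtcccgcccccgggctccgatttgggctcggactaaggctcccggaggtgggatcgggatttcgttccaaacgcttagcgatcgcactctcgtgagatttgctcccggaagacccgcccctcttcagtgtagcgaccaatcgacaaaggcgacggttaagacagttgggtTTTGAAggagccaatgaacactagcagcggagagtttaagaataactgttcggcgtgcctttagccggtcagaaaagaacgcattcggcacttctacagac
Ccnf, chr10:13783620-13783919, minus strand: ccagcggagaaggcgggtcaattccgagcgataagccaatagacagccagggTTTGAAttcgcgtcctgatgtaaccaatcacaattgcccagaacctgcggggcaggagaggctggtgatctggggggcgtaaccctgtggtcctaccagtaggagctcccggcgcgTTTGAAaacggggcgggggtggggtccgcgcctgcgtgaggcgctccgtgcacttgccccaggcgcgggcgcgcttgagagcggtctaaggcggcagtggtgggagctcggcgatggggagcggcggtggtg

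An E2F match was present in 7 of the 68 member promoters (10.3%), against 1.53% of all 27457 promoters in the table. The 7 were Mcm3, Mcm5, Mcm6, Mcm7, Mcm8, Cdc25a and Rfc3, so 5 of them are MCM genes. The CHR letters were present in 14 of 68 (20.6%), against 18.1% of all promoters. A match is a run of letters and was not measured as a binding site.

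Of the 87 members, 56 were detected in FR30 high-fat, 59 in FR30 standard, 56 in control high-fat and 58 in control standard liver. Detection means a deposited detection p-value under 0.05 against the negative control beads, whose mean lay between 153.4 and 154.0. On all 4 samples 55 members (63.2%) were detected, against 39.3% of all genes, and 28 were detected on none. Those on none included cyclins A1, A2, B3, D2, E1 and E2, Cdk1 (Cdc2 in the file), Aurkb, Plk1, Plk4, Cdc6, Cdc7, Cdc25b, Cdc25c, Mcm3, Mcm5 and Mcm8, and the inhibitors Cdkn1c, Cdkn2b, Cdkn2c and Cdkn3. Mki67, the classical marker of cycling cells, was detected everywhere but barely, at signals of 185.2, 196.8, 190.1 and 189.1 in the FR30 high-fat, FR30 standard, control high-fat and control standard samples. No member carried the symbol Top2a, Ccnd3, Ccnb1 or Cdk2, so these genes were not analysed here.

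**Figure D1:**
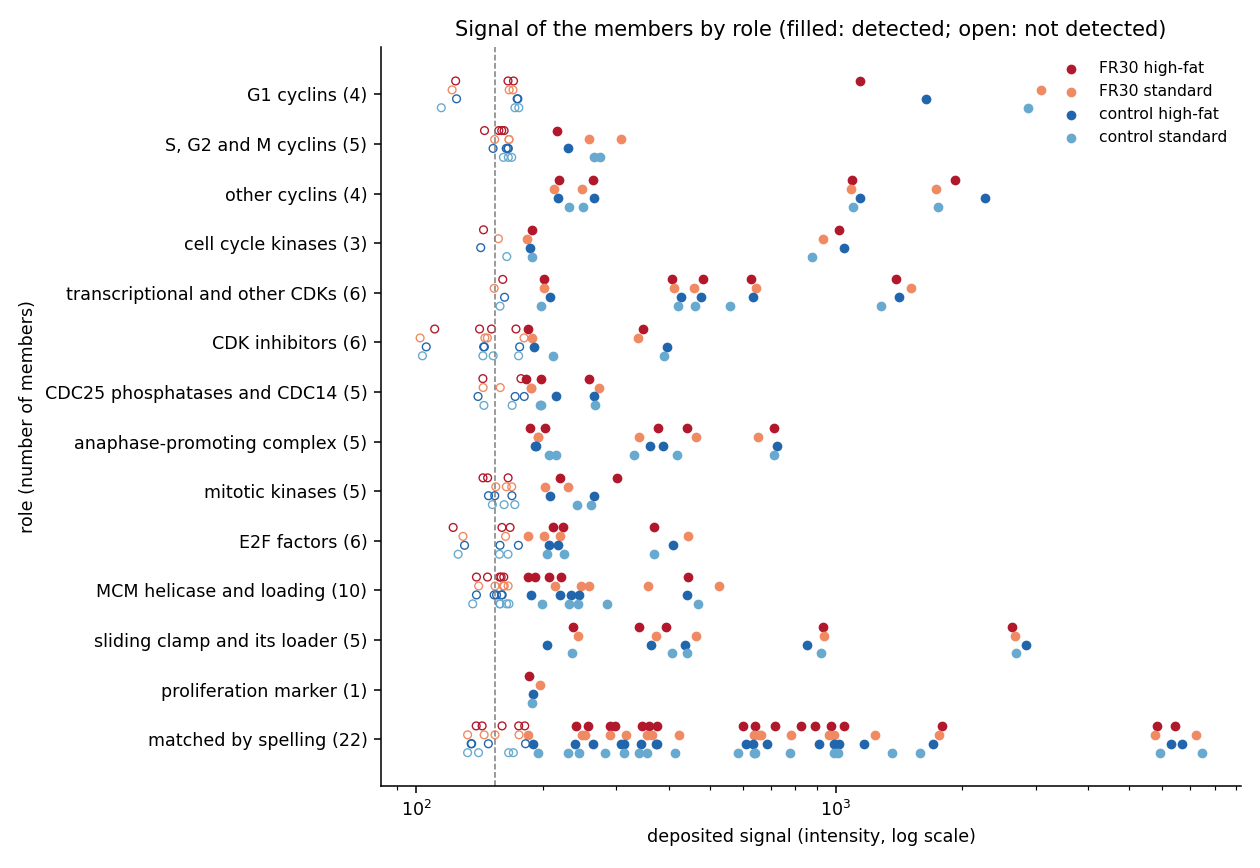
Deposited signal of all 87 members (log axis), by role and sample, with 1 point per member and sample. Open points were not detected, and the dashed line marks the mean background; most E, A and B cyclins and mitotic kinases sit near that line, while Pcna (2627.3 to 2841.5) and Ccnd1 (1138.8 to 3080.6) lie far above it.

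The samples also differed in markers of other cells. All 5 measured hepatocyte markers were detected everywhere, with summed signals of 181714.7, 210986.2, 206982.3 and 216326.2 in the FR30 high-fat, FR30 standard, control high-fat and control standard samples. In the FR30 standard sample, which has the highest Mcm6 and Ccnf signals of the set, the 6 adipocyte markers summed to 7657.8, against 2808 to 3274.1 in the others. There 4 of 5 skeletal muscle markers were detected, against 0 in the others, and STDEVs exceeded 20% of the signal for 115 genes, against 0 or 1 in the others. No member did in any sample; in the FR30 standard sample Mki67 had 11.5% and Mcm6 had 10.1%, and over all samples Cdkn1b was widest, at 11.6% in control standard liver. Erythroid markers summed to 63611.9 and 66962.4 in the FR30 and control high-fat samples, against 45670.9 and 46975.4 in the FR30 and control standard samples, higher with the diet on which Ccnd1, Ccnf and Mcm10 were lower. Of the 6 stellate and fibroblast markers, 2 were at least 1.5-fold lower between diets in FR30 offspring (Lum -0.92, Des -0.72), and their sum was 5283.3 in the FR30 standard sample, against 4503.7 to 4654.4 in the others. Lymphocyte markers summed to between 1230.1 and 1298, with most probes not detected, and macrophage markers to between 1297.8 and 1510.3. Cd8a, of T cells, read 228.8, 297.9, 251.9 and 252.3 in the FR30 high-fat, FR30 standard, control high-fat and control standard samples, highest and lowest in the same samples as Mcm6, with a diet difference of -0.81 in FR30 offspring. Vsig4, of Kupffer cells, was higher by 0.59 in FR30 than in control offspring on the standard diet. The part of these cells in the results below was not tested.

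The members as a whole differed little. Among the 55 detected everywhere the highest deposited signal exceeded the lowest by a median of 1.12-fold, against 1.14-fold over 8476 genes. With high-fat against standard feeding in FR30 offspring, 5 of 59 members compared were at least 1.5-fold lower and 1 was higher, against 3.39% lower and 3.84% higher among all genes. In control offspring the same diet comparison had 3 of 58 lower and 0 higher, against 3.37% and 2.58%. FR30 offspring against control offspring on the high-fat diet gave 2 of 57 lower and 0 higher, where 1.58% of all genes were lower and 1.86% higher. On the standard diet FR30 against control gave 1 of 59 lower and 1 higher, against 2.21% and 2.13%. The counts of members are small, and most lie near these shares. The widest gap was on the lower side of the diet comparison in FR30 offspring, with 5 of 59 members against 324 of 9562 genes. Among members with a textbook role, 5 of 36 were lower and 1 was higher there. In control offspring 3 of 35 of them were lower and 0 higher between diets. The 1.5-fold differences of members carry no test. Median log2 differences of the members were -0.04, 0.01, -0.06 and 0.02 in the same order, and those of all genes were -0.0028, 0.0137, -0.0068 and -0.0005.

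**Figure D2:**
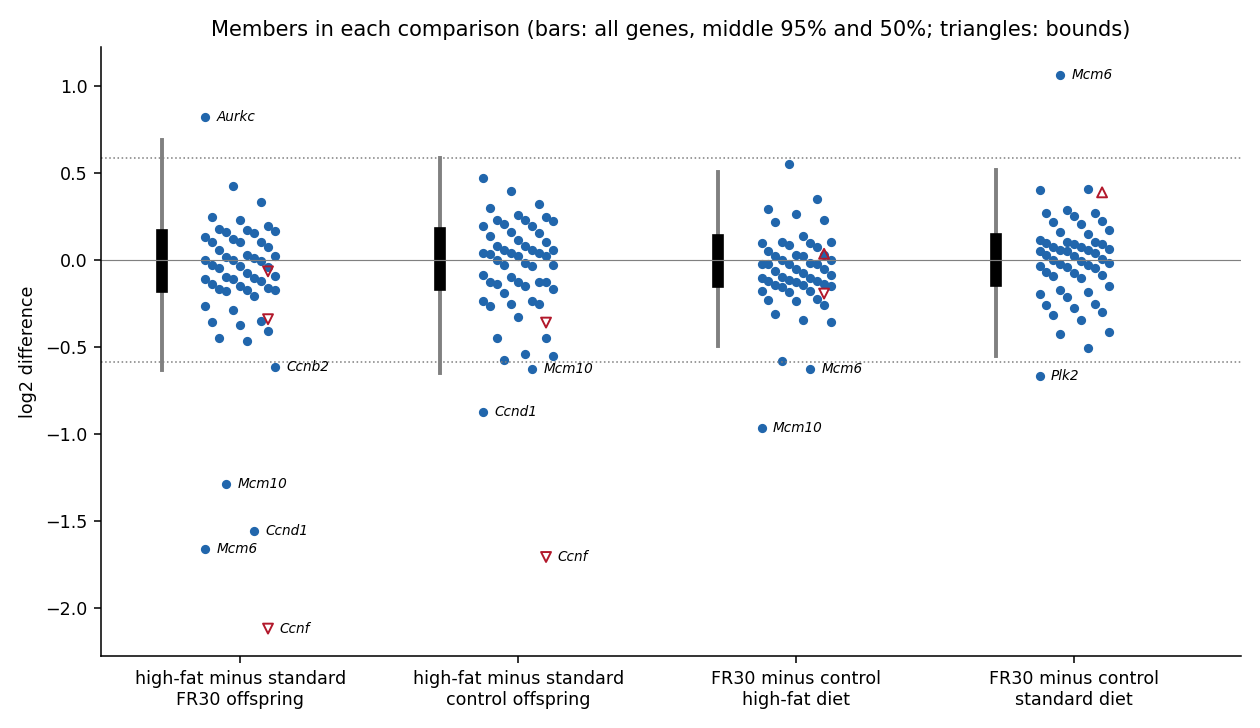
Log2 difference of each member in the 4 comparisons (points: detected on both samples; triangles: bounds for members detected on 1 sample), beside bars for the middle 50% (black) and 95% (grey) of all genes. Dotted lines mark 1.5-fold; Mcm6, Ccnd1, Mcm10, Ccnb2 and Ccnf lie below the lower line in the first comparison, and most other points fall within the range of all genes.

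Log2 differences below are taken after background correction and quantile scaling, and each error is carried over from the deposited STDEVs of both signals. The number of measurements behind a STDEV is not stated. An unequal share of cells in cycle and an unequal RNA level per cell cannot be told apart in whole tissue.

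Among the 4 G1 cyclins measured here, Ccnd1, the partner of CDK4 and CDK6, was the only 1 detected, and it was lower on the high-fat diet in both kinds of offspring. Its signal was 1138.8 (STDEV 29.5) in FR30 high-fat liver, 3080.6 (STDEV 221) in FR30 standard liver, 1641 (STDEV 76.8) in control high-fat liver and 2865.2 (STDEV 17.6) in control standard liver. Both high-fat samples lay below both standard samples, with the FR30 high-fat sample lowest. The log2 difference between diets was -1.55 ± 0.12 in FR30 offspring, a 2.94-fold lower level. In control offspring it was -0.87 ± 0.07, a 1.83-fold lower level. Counted from the lowest value, Ccnd1 ranked 22 of 8755 genes in FR30 offspring and 108 of 8757 in control offspring. FR30 minus control read -0.58 ± 0.09 on the high-fat diet, just short of the 1.5-fold limit at 1.496-fold, and 0.10 ± 0.11 on the standard diet. Without background correction the diet difference in FR30 offspring was -1.44.

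Cyclins of S phase and mitosis were mostly at background, with Ccnf and Ccnb2 as exceptions. Ccnf encodes cyclin F, which binds no CDK and serves as the substrate receptor of an SCF ubiquitin ligase. It read 159.8 and 165.7 in the FR30 and control high-fat samples, where it was not detected, against 306.8 and 264.5 in the FR30 and control standard samples. Both standard samples were the brighter, and the STDEVs within a sample were at most 11.02. The deposited signals differed 1.92-fold between diets in FR30 offspring and 1.60-fold in control offspring. After background correction the standard sample stood 4.34-fold above the lowest detected level of the high-fat sample in FR30 offspring and 3.26-fold in control offspring. That level was a signal of 168.1 in FR30 and 168 in control high-fat liver. Cdc42bpb at 181.3 in FR30 high-fat and Cdc14b at 180.8 in control high-fat liver were not detected. The 4.34-fold and 3.26-fold may therefore be too high as lower limits. With detection under 0.01 they were 3.71-fold and 2.82-fold. Without the correction these limits were 1.83-fold and 1.57-fold, so their size depends on the correction. On the standard diet FR30 minus control was 0.41 ± 0.14. Ccnb2, a mitotic partner of CDK1, read 216.5 and 258 in the FR30 high-fat and FR30 standard samples, and 230.1 and 274.1 in the control high-fat and control standard samples. That gave log2 differences between diets of -0.61 ± 0.11 in FR30 offspring and -0.57 ± 0.15 in control offspring, on either side of the 1.5-fold limit. Without background correction the Ccnb2 difference in FR30 offspring was -0.25. Ccna2 read between 145.4 and 165.7 and was detected nowhere.

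The remaining cyclins have duties outside the G1 and mitotic waves and varied little. Ccnh, the subunit of the CDK-activating kinase that pairs with CDK7, was bright at 1924.3, 1730.1, 2264 and 1754.6 in the FR30 high-fat, FR30 standard, control high-fat and control standard samples. Its log2 difference between diets was 0.17 in FR30 offspring and 0.40 ± 0.04 in control offspring, the highest cyclin value there. The p53 target Ccng1 lay between 1085.4 and 1140.9. Ccnc, of the Mediator kinase module, read between 248.6 and 265. Ccng2, an atypical cyclin of arrested cells, read 219.4, 213.4, 217.8 and 231.7 in that order of samples, with FR30 minus control at -0.31 on the standard diet.

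**Figure D3:**
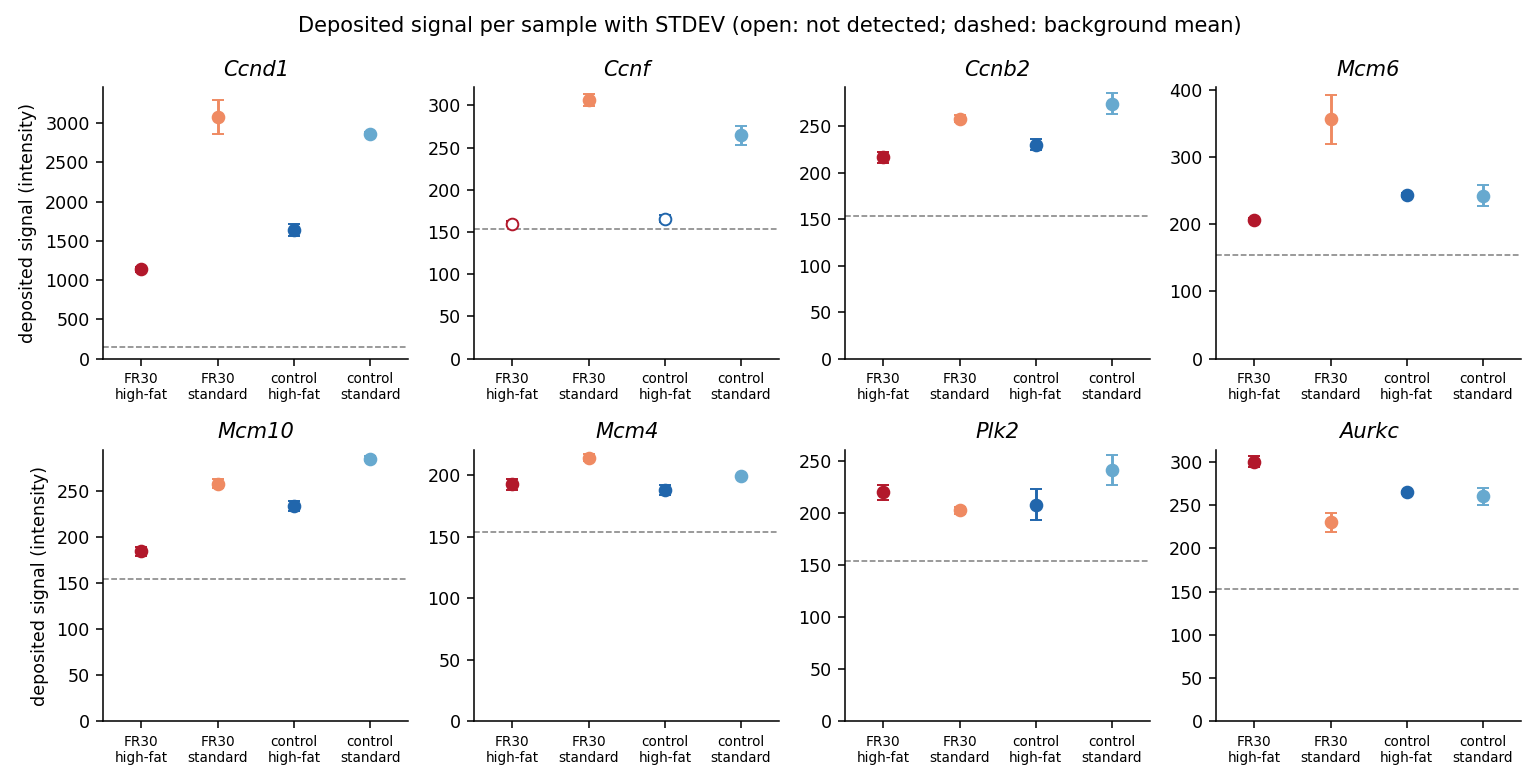
Deposited signal with STDEV in each sample for 8 members, with open points for samples where the gene was not detected and a dashed line at the mean background. Ccnd1, Ccnf and Ccnb2 are lower in both high-fat samples than in both standard samples, Mcm6 is highest in the FR30 standard sample (355.7), and Mcm10 is lowest in the FR30 high-fat sample (184.2).

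The kinases that G1 cyclins activate did not share the pattern of Ccnd1. Cdk4 read 1016.6, 931.6, 1048.2 and 878.2 in the FR30 high-fat, FR30 standard, control high-fat and control standard samples. Between diets it differed by 0.15 in FR30 offspring and 0.30 in control offspring, both higher on the high-fat diet. Cdk6 was faint, between 184 and 189.2. Cdk7 lay between 560.7 and 644, and Cdk9, of the elongation factor P-TEFb, between 1280.7 and 1510.9, with FR30 minus control at 0.27 on the standard diet. Of the transcriptional and other CDKs in the set 5 of 6 were detected everywhere and 0 passed 1.5-fold in any comparison. Cdk14 and Cdk18, stored under older names outside the set, are given at the end. Among all genes 1.58% to 3.84% passed in each direction, so a count of 0 among so few genes says little.

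Only Cdkn1a and Cdkn1b among the CDK inhibitors were detected. Cdkn1a encodes p21, the inhibitor that p53 induces. It read 184.3 in the FR30 high-fat, 188.4 in the FR30 standard, 190.4 in the control high-fat and 212.1 in the control standard sample. FR30 minus control on the standard diet was -0.50, and the intervals of 2 STDEV around both signals overlapped. Cdkn1b, p27, was 346.2 and 338.2 in the FR30 high-fat and FR30 standard samples, against 395.5 and 388.8 in the control samples on the same diets. FR30 minus control read -0.31 on the high-fat and -0.34 on the standard diet, and intervals of 2 STDEV overlapped on the standard diet, where the control sample had a STDEV of 45. The INK4 genes Cdkn2b and Cdkn2c stayed between 141.5 and 152.5, below the background mean.

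E2F factors passed 1.5-fold in no comparison, with 3 or 4 of 6 compared, against 1.58% to 3.84% of all genes in each direction. E2f5, a repressor of the family, read 369.2, 444.9, 408.6 and 369.1 in the FR30 high-fat, FR30 standard, control high-fat and control standard samples, with a STDEV of 43.5 in the FR30 standard sample. E2f6, another repressor, read 223.3, 201.1, 207.6 and 205.1 in that order of samples, with a diet difference of 0.43 ± 0.28 in FR30 offspring and FR30 minus control at 0.29 on the high-fat diet. E2f1, an activator, was detected in the FR30 standard sample alone, at 184.2 with a detection p-value of 0.0449. Its value there lies just inside the detection limit, and in the other samples it read between 165.4 and 175.1.

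Among members detected on both samples, the replicative helicase held the largest difference between the FR30 samples. Mcm6, a subunit of the MCM2-7 ring, read 206.6 (STDEV 2.10) in FR30 high-fat liver, 355.7 (STDEV 35.9) in FR30 standard liver, 243.8 (STDEV 3.14) in control high-fat liver and 242.3 (STDEV 15.7) in control standard liver. The FR30 standard sample, the one with fat and muscle markers, was the highest, and the control samples were nearly equal. The log2 difference between diets was -1.66 ± 0.24 in FR30 offspring, 3.16-fold lower, and 0.03 ± 0.22 in control offspring. FR30 minus control was 1.06 ± 0.32 on the standard diet, 2.09-fold higher, and -0.62 ± 0.06 on the high-fat diet, 1.54-fold lower. The -1.66 and the 1.06 share the FR30 standard sample and are not separate results. Without background correction the diet difference in FR30 offspring was -0.78, and FR30 minus control was 0.55 on the standard and -0.24 on the high-fat diet, both then short of 1.5-fold.

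Other subunits of the ring were also highest in the FR30 standard sample. Mcm7 read 444.7, 527.1, 442.9 and 469.4 in the FR30 high-fat, FR30 standard, control high-fat and control standard samples. Mcm4 read 192.3, 214.1, 187.6 and 198.9 in that order of samples, and Mcm2 read 221.4, 246.6, 219.7 and 231.4. Each was lower on the high-fat diet in both kinds of offspring, which Mcm6 was not. Between diets, Mcm7 differed by -0.35 ± 0.15 in FR30 and -0.12 ± 0.08 in control offspring. Mcm4 differed by -0.45 ± 0.13 and -0.25 ± 0.12, and Mcm2 by -0.37 ± 0.25 and -0.19 ± 0.20. Intervals of 2 STDEV were apart between diets for Mcm4 and overlapped for Mcm7 and Mcm2, in both kinds of offspring. None of these 3 passed 1.5-fold. Mcm3 and Mcm5 were not detected, so 4 of the 6 ring subunits carry values.

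Mcm10, which helps to activate the helicase at origins, followed another order. It read 184.2 (STDEV 4.96) in FR30 high-fat liver, 257.6 (STDEV 4.39) in FR30 standard liver, 233.5 (STDEV 5.56) in control high-fat liver and 284.6 (STDEV 2.80) in control standard liver. Both high-fat samples were below both standard samples, and both FR30 samples were below the control sample on the same diet. The log2 difference between diets was -1.29 ± 0.15 in FR30 offspring and -0.62 ± 0.09 in control offspring. FR30 minus control was -0.96 ± 0.17 on the high-fat diet and -0.30 ± 0.06 on the standard diet. The detection p-value in the FR30 high-fat sample was 0.0412, so the differences that use it rest on a faint signal. Without background correction the log2 difference between diets was -0.48 in FR30 and -0.29 in control offspring, and FR30 minus control on the high-fat diet was -0.34, all short of 1.5-fold.

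The sliding clamp and its loader differed little, apart from Rfc2. Pcna, the clamp, read 2627.3, 2679.9, 2841.5 and 2683.5 in the FR30 high-fat, FR30 standard, control high-fat and control standard samples. All 4 Pcna differences lay between -0.12 and 0.08. Rfc4 lay between 855 and 935, Rfc3 between 394.5 and 465.3 and Rfc5 between 340.2 and 407. Rfc2 was lowest in the control high-fat sample, at 204.5, against 236.3, 243.2 and 235 in the FR30 high-fat, FR30 standard and control standard samples. That single low value gives both its diet difference in control offspring, -0.54, and its FR30 minus control difference on the high-fat diet, 0.55.

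Genes of mitotic exit and entry showed small differences in both directions. The anaphase-promoting complex subunits Cdc16, Cdc23, Cdc26 and Cdc27 and its activator Cdc20 were detected everywhere. Cdc20 read 186.8, 195, 193.3 and 215.7 in the FR30 high-fat, FR30 standard, control high-fat and control standard samples, with STDEVs between 6.99 and 12.9. Cdc27 lay between 388 and 463.6, with FR30 minus control at 0.27 on the high-fat diet. Cdc26 had a diet difference of 0.25 in FR30 offspring. The phosphatase Cdc25a, which activates CDK2, stayed between 258.7 and 273.1. Cdc14a, a phosphatase that opposes CDKs, read 198, 187.2, 214.7 and 198 in the FR30 high-fat, FR30 standard, control high-fat and control standard samples, with diet differences of 0.23 ± 0.51 in FR30 and 0.32 ± 0.21 in control offspring. FR30 minus control was -0.34 ± 0.35 for Cdc14a on the high-fat diet. Its relative Cdc14b was not detected in control high-fat liver, where it read 180.8, against 196.9 in control standard liver.

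Of the Aurora and Polo-like kinases, Aurkc and Plk2 were detected. Aurkc, best known from meiosis, read 300.2 (STDEV 6.31) in FR30 high-fat liver, 230.2 (STDEV 11.1) in FR30 standard liver, 265 (STDEV 1.71) in control high-fat liver and 260.2 (STDEV 10.1) in control standard liver. The FR30 samples lay at both ends and the control samples between them. The log2 difference between diets was 0.82 ± 0.18 in FR30 offspring, the highest of the 56 members detected on both samples, and 0.06 ± 0.12 in control offspring. Plk2, a stress-induced kinase of the Polo family, read 220.1, 202.9, 208.3 and 241.7 in the FR30 high-fat, FR30 standard, control high-fat and control standard samples. FR30 minus control on the standard diet was -0.66 ± 0.21. Between diets Plk2 was higher by 0.33 ± 0.15 in FR30 offspring and lower in control offspring, at -0.55 ± 0.36. Without background correction the Aurkc diet difference in FR30 offspring was 0.38 and the Plk2 difference on the standard diet was -0.25, both short of 1.5-fold.

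Genes that matched by spelling alone passed 1.5-fold in no comparison. Of 22, 17 were detected everywhere and 18 could be compared in each comparison. Among all genes 1.58% to 3.84% passed in each direction, so 0 of 18 lies near the general share. Cdc42 lay between 6440.6 and 7462.5 and Cdc37 between 5764.8 and 6286.6. Nsa2, a ribosome assembly factor stored as Cdk105 in the file, had the highest diet difference of a member in control offspring, 0.47, with a signal of 1020 in the control high-fat sample against 775.5 in the control standard sample. Cdc42se1, a small effector of CDC42, read 344.6 and 423.6 in the FR30 high-fat and FR30 standard samples, a log2 difference of -0.46. Cdc42ep5 and Cdkn2aip had diet differences of 0.26 and 0.25 in control offspring, and Cdc42ep2 had an FR30 minus control difference of 0.27 on the standard diet. Cdc42bpb, a kinase that binds CDC42, was faint at 181.3 to 195.3 and not detected in FR30 high-fat liver.

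The diet comparisons in FR30 and in control offspring use separate samples. Ccnd1, Mcm10 and Ccnf were at least 1.5-fold lower in both, which is 3 of 58 members compared, against 0.927% of 9173 genes. None of the members was higher in both, against 1.11% of genes. Among 55 members detected everywhere, 18 were higher and 21 lower on the high-fat diet in both kinds of offspring, so 70.9% had the same direction, against 59.7% of 8476 genes. For the difference between the diet differences, FR30 minus control offspring, 1 of 55 members passed 2-fold lower and 0 higher, against 1.09% and 1.1% of 8476 genes. That member was Mcm6, at -1.69. The next lowest were Ccnd1 at -0.68, Mcm10 at -0.66 and E2f5 at -0.64, and the highest were Plk2 at 0.88, Aurkc at 0.76, Cdc23 at 0.50 and Rfc2 at 0.44.

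**Figure D4:**
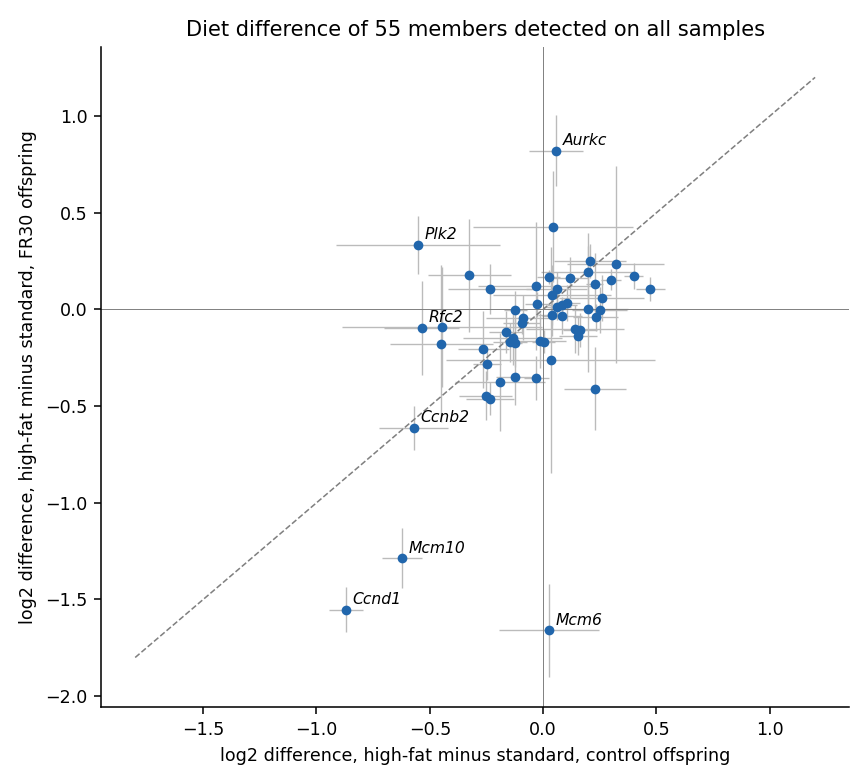
Log2 difference between diets in FR30 offspring (vertical) against control offspring (horizontal) for the 55 members detected on all samples, with bars for the error carried over from the deposited STDEVs and a dashed line of equal differences. Ccnd1 and Mcm10 are lower on the high-fat diet in both, Mcm6 lies at -1.66 and 0.03, and most members lie within 0.5 of 0 on both axes.

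Proliferation genes outside the set were read from 6 lists, without the members. Of 30 measured genes of the spindle, kinetochore and cytokinesis, 8 could be compared between diets in FR30 offspring. Of these, 1 was at least 1.5-fold lower and 0 higher, against 3.39% and 3.84% of all genes. The median over the 6 detected on both samples was -0.44. The lower gene was Cks1b, a small CDK-binding protein, at -0.66, with signals of 581.9 in the FR30 high-fat and 844 in the FR30 standard sample. The other 5 detected on both samples read -0.55 for Dlgap5, -0.51 for Tpx2, -0.37 for Prc1, 0.13 for Foxm1 and 0.05 for Cks2, and intervals of 2 STDEV were apart only for Cks1b and Tpx2. In control offspring 0 of 7 passed either way, against 3.37% of all genes lower and 2.58% higher, and Cks1b read -0.30. Of DNA replication and nucleotide supply genes, 20 were compared in FR30 offspring. The origin subunit Orc6 was the 1 lower, at -0.63, against 3.39% of all genes. Of 22 compared in control offspring 1 was higher, thymidylate synthase Tyms at 0.75, against 2.58% of all genes. Without background correction Cks1b read -0.54 and Orc6 -0.24 in FR30 offspring and Tyms 0.29 in control offspring, all short of 1.5-fold. No gene of either list passed 1.5-fold between FR30 and control offspring on either diet, where 1.58% to 2.21% of all genes passed in each direction.

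The Rb pathway and ubiquitin ligase list had 1 of 16 genes past 1.5-fold between diets in FR30 offspring, Anapc1 at 0.61 (0.21 without background correction). Of all genes 3.84% were higher in that comparison. In control offspring the list had 0 of 15, against 3.37% of all genes lower and 2.58% higher. The DNA damage checkpoint list had 0 of 8 in each comparison, where 1.58% to 3.84% of all genes passed in each direction. Among p53 targets, 4 of 13 were lower with high-fat feeding in control offspring, namely the antiproliferative gene Btg2 at -1.10, Phlda3, an inhibitor of AKT, at -1.05, the stress gene Gadd45a at -0.88 and Perp at -0.59; over all genes 3.37% were lower in that comparison. In FR30 offspring 1 of 14 was lower, against 3.39% of all genes: Phlda3 at -1.59, while Btg2 read -0.53. Between FR30 and control offspring 2 of 13 were lower on the standard diet, Gadd45a at -0.83 and Btg2 at -0.65, against 2.21% of all genes. On the high-fat diet 1 of 14 was lower, Phlda3 at -0.59, against 1.58% of all genes. Without background correction the Perp value was -0.55, that Btg2 value -0.58 and that Phlda3 value -0.37, all short of 1.5-fold. Phlda3 signals were 324, 700.5, 418.1 and 716.6 in the FR30 high-fat, FR30 standard, control high-fat and control standard samples, lower in both high-fat samples.

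Of the growth signal genes, 2 of 17 were lower between diets in FR30 offspring and 4 of 17 in control offspring, against 3.39% and 3.37% of all genes, with 0 higher in either, against 3.84% and 2.58%. Socs2, a feedback inhibitor of growth hormone signalling, was lower on the high-fat diet in both, by log2 differences of -2.04 in FR30 and -2.19 in control offspring. Gadd45g and Jun were highest in the control standard sample, and their diet differences were 0.34 and -0.31 in FR30 offspring and -2.26 and -1.09 in control offspring. FR30 against control had 2 higher and 4 lower of 17 on the standard diet, against 2.13% and 2.21% of all genes, and 1 of 16 each way on the high-fat diet, against 1.86% and 1.58%. Egfr, the receptor for epidermal growth factor, read 493.1, 797.5, 562.6 and 524.7 in the FR30 high-fat, FR30 standard, control high-fat and control standard samples. It was highest in the FR30 standard sample, as Mcm6 was. Its log2 difference between diets was -0.89 in FR30 offspring, and FR30 minus control on the standard diet was 0.77. Myc, the growth-promoting transcription factor, read 931.4, 694.6, 1429.1 and 1006.5 in the same samples. Myc was higher with high-fat feeding in FR30 and in control offspring, by 0.51 and 0.57, both short of 1.5-fold, where Ccnd1 was lower. FR30 minus control for Myc was -0.643 on the standard and -0.696 on the high-fat diet, both past 1.5-fold. For Socs2 it was 0.848 on the standard and 0.9985 on the high-fat diet, also past 1.5-fold. Without background correction Myc read -0.535 and -0.618, and Socs2 read 0.707 and 0.536, on the standard and high-fat diets. Myc on the standard diet and Socs2 on the high-fat diet were then short of 1.5-fold.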

How the data were processed

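Per the labels' protocols, total liver RNA was isolated with Trizol, passed over RNeasy columns with DNase I digestion and amplified to biotin-labelled cRNA. The submitters' processing notes name GenomeStudio. Per the file headers, the deposited table gives each probe a normalized intensity, a STDEV and a detection p-value. No source used here states the normalization, the genome build or what the STDEV runs over. The series matrix repeats these intensities for 21791 rows. The non-normalized intensities the authors deposited correlated with them at r of 0.0587 to 0.0658 over rows (log2, Pearson) by identifier and were left out.

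Computed here, with R 4.3.3, limma 3.58.1 and Python 3.11.15: limma's normexp correction, its background taken from the detection p-values of the 21209 rows whose p-values are multiples of 1 in 825, an offset of 16, quantile scaling and log2. Symbols were brought up to date from RefSeq names (GRCr8): 82 of 87 members were current and 5 were renamed. For each gene the row of highest mean signal stayed. Where only 1 sample of a pair detected a gene, its log2 value was set against the other sample's value or that sample's lowest detected value, whichever was higher. The fold is a limit relative to that value, and some probes above the lowest detected value were not detected. The limit for a call was 1.5-fold, and 2-fold for differences between diet differences, without a test. Intensity has no depth, and the number of arrays limits the precision. Scripts were tested on simulated data. Alternatives were no correction, an offset of 50, median scaling, stricter detection, intervals of 2 STDEV and members with a textbook role alone. Named members are, for each comparison, the 6 largest differences and 2 largest bounds each way, the top 4 in either direction between diet differences, a set list of core cyclins, kinases, inhibitors and replication genes, and up to 4 genes of each related list. Others (Cdk7, Cdc16, Cdc25a, Cdc37, Cdc42 and further members listed as not detected) were picked after their values were seen. So were the list gene Foxo3 and the markers Cd8a, Lum, Des and Vsig4. Members and lists were chosen with earlier results of these data known.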

Additional observations from a re-analysis of the deposited data

Results flagged for a closer look

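Mcm6 differed in opposite directions between FR30 and control offspring on the 2 diets. FR30 minus control was -0.62 on the high-fat diet and 1.06 on the standard diet, both past 1.5-fold, and the difference between these log2 differences was -1.69. With 1 sample per group this difference was not tested. The FR30 standard sample, which has the highest Mcm6 signal (355.7, STDEV 35.9), also held the adipocyte and skeletal muscle signals given above, and their part was not tested.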

How the results depend on the processing

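No paired analysis was possible because each group has 1 sample, and for the same reason no sample could be left out of a group. Without background correction, 3 members were lower and 0 higher between diets in FR30 offspring, against 5 and 1 with it. The same setting gave 0 higher and 0 lower for FR30 minus control on the standard diet (reported 1 and 1), 0 lower on the high-fat diet (reported 2) and 0 lower for the difference of differences (reported 1). Over all genes it gave 164 higher and 136 lower between diets in FR30 offspring, against 367 and 324 with it. With an offset of 50, FR30 minus control had 0 lower on the standard and 1 lower on the high-fat diet. Without members whose STDEV was over 10% of the signal, a setting chosen after seeing the data that leaves out Mcm6, 0 were higher for FR30 minus control on the standard diet and 0 lower for the difference of differences. The other counts stayed within 1.5 times. Medians moved by less than the median error of a member's difference, but with textbook members alone they read -0.09 between diets in FR30 offspring, -0.03 in control offspring and -0.03 for FR30 minus control on the standard diet, where the control and standard-diet values had the other sign in the report. For members and list genes past their fold limit, no correction, median scaling, an offset of 50, detection under 0.01 and detection on all samples changed no direction where they gave a value. Faint members lost size with no correction: the diet difference in FR30 offspring read -0.78 for Mcm6, -0.48 for Mcm10 and 0.38 for Aurkc, and the Mcm6 difference of differences -0.79. The Ccnf limits were 1.83-fold and 1.57-fold, and 2.78-fold and 2.21-fold with an offset of 50, in FR30 and control offspring. Arrays carry no depth; signal near the background limits these members.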

Other observations

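Several genes of these families are stored under older names and fell outside the spelling rule. Cdk14, stored as Pftk1, read 228.7, 210.3, 281 and 211.5 in the FR30 high-fat, FR30 standard, control high-fat and control standard samples. It was highest in the control high-fat sample, with a log2 difference between diets of 0.32 in FR30 and 0.95 in control offspring, and FR30 minus control on the high-fat diet was -0.65. These deposited Cdk14 signals, without background correction, differed by less than 1.5-fold in every comparison. Cdk18, stored as Pctk3, was detected in every sample except the control high-fat one, where it read 174.4, against 206.8 in the control standard sample. That gave a bound of -0.71 between diets in control offspring, past 1.5-fold, with overlapping intervals of 2 STDEV. Its deposited signals differed by less than 1.5-fold. Rfc1, the large clamp loader subunit stored as Recc1, lay between 285.9 and 312, and E2f3 between 179 and 195. Aurka, stored as Stk6, read between 166.3 and 172.3 and was detected nowhere.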
